A study of Mus musculus with 10 samples.

Results

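General transcription factors and their testis paralogs were described here as 9 genes, chosen by name, out of 28125 genes in the scRNA-seq matrix and 30657 nuclear genes in the scATAC-seq matrix. The general forms were Tbp, Taf4, Taf7 and Gtf2a1, and the testis forms were Tbpl1, Taf4b, Taf7l, Gtf2a1l and Brdt. Brdt is described on its own, and the others in 4 pairs. All 9 passed the filter on low values in both matrices.

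RNA and accessible chromatin were read together from nuclei of whole mouse testis, with 1 library per condition and assay. The wild-type (WT) animals were 11, 17 and 25 days old (dpp). The other 2 conditions were 8 weeks old, namely Cre/+, the control that carries Stra8-Cre, and Nfya-CKO (Nfya fl/fl with Stra8-Cre, on C57BL/6J), in which exons of Nfya, a subunit of the CCAAT-binding factor NF-Y, are removed in germ cells. Stra8 drives the Cre in germ cells before meiosis, so Sertoli and other somatic cells keep the gene, and how many animals went into a library was not given in the sources used here. The authors pooled cells of all libraries into 13 populations, here named undifferentiated and differentiating spermatogonia (undiff. SpG and diff. SpG), preleptotene (pL), early leptotene to zygotene (eL/L/Z), leptotene to early pachytene (L/Z/eP), middle to late pachytene (mP/lP) and diplotene (D) spermatocytes, round and elongating spermatids (RS and ES), Sertoli cells, other somatic cells (which the authors name after Nfya-CKO, and of which 78.8% came from that library), SpG from the library labelled Nfya-CKO, and a population called unknown. Each gene therefore has 1 pooled value per population and assay, with no replicate, and no value below carries an error or a test. A difference was called by size alone, at 2-fold on RNA value + 0.1 and at 1.5-fold on scATAC-seq value + 1, and the share of all tested genes past the same fold is given beside it.

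The 5 scRNA-seq libraries held 30227701 to 64967271 UMIs, and the 13 populations 99 (unknown) to 8107 (L/Z/eP) cells. Population and library went together in part. Undiff. SpG cells were 92.0% juvenile, pL cells 99.7% and eL/L/Z cells 98.6%. L/Z/eP cells were 93.5% and mP/lP cells 70.7% from 25 dpp. RS cells were 77.0%, ES cells 99.6% and diff. SpG cells 84.5% from Cre/+. Stage and library cannot be told apart for these. Libraries also shared cell barcodes. The Cre/+ and Nfya-CKO libraries had 3813 barcodes in common, 74.0% of the cells of the smaller library, and pairs of WT libraries had 621 to 853, whereas a WT and an 8-week-old library shared 0 to 19. Of the 491 SpG from the library labelled Nfya-CKO, 175 had a barcode that was also a cell of Cre/+, and 143 of these were named diff. SpG there, and the median ratio of their UMIs, Nfya-CKO over Cre/+, was 9.54. In diff. SpG, 448 of the 783 cells from Cre/+ had a barcode of the Nfya-CKO library, 305 of them named other somatic there. A barcode seen in another library was held by 59.7% of ES and 70.1% of other somatic cells. The matrices hold pooled values, so no value could be computed without these cells. RNA of Nfya was 1.11 UMIs per 10000 in SpG from the library labelled Nfya-CKO, against 0.456 in undiff. SpG and 0.667 in diff. SpG, so it was not lower there. Only part of the exons of Nfya is flanked by loxP sites, so RNA summed over the whole gene need not be lower and is no check of the label. Besides these SpG, the germ cells of the library labelled Nfya-CKO were 1 undiff. SpG cell, 4 of eL/L/Z and 4 of D, where Cre/+ held 102, 74 and 2193, and it had 0 in the 6 other germ cell populations, where Cre/+ held 6 (pL) to 5639 (RS). The directions below hold for the label as given.

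RNA polymerase II starts transcription from a preinitiation complex. TFIID, made of TBP and its associated factors (TAFs), binds the core promoter, TFIIA steadies TBP there, and TFIIB, TFIIE, TFIIF and TFIIH complete the complex. Male germ cells express paralogs of several of these subunits, and BRDT, a bromodomain protein of the testis, binds acetylated histones.

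Sequences before a transcript start of 4 of the genes are shown because NF-Y binds the motif CCAAT and the genotype of the study concerns it. They come from the 250 bases before a RefSeq start site (GRCm38.p6, the build of mm10), are written 5′ to 3′ on the gene's strand, and have CCAAT (or ATTGG, the same motif on the other strand) and CACGTG, the E-box letters, in capitals. Genes with several transcripts have several starts, and the start used was the outermost one of the gene span for Taf4, Tbp and 1 of the 2 windows of Gtf2a1. It lay inside the span by 15 bases for Taf7l, 78 for Brdt, 838 for the other window of Gtf2a1, 1219 for Tbpl1 and 3167 for Gtf2a1l. The Gtf2a1l window therefore lies wholly within an intron of the longer transcript, the Tbpl1 window wholly within a non-coding exon part, and the last 78 bases of the Brdt window in such a part as well, of which the 48 nearest the start are not printed. The Taf4 sequence lies at chr2:179976647-179976896 on the minus strand, that of Brdt at chr5:107330944-107331145 on the plus strand, that of Taf7l at chrX:134476491-134476740 on the minus strand and that of Gtf2a1l at chr17:88668410-88668659 on the plus strand.
Taf4: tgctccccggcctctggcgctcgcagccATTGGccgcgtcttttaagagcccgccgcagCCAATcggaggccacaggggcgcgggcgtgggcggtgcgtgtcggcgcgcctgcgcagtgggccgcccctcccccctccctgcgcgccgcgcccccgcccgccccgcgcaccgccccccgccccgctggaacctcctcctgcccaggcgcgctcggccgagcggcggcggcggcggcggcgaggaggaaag
Brdt: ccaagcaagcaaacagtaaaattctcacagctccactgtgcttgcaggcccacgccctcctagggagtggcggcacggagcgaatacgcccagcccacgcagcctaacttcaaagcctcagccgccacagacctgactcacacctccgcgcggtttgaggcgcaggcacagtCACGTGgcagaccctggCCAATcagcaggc
Taf7l: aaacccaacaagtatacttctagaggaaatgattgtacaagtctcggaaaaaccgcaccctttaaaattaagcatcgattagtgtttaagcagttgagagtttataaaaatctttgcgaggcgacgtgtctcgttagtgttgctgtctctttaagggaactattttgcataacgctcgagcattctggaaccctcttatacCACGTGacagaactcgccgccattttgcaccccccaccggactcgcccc
Gtf2a1l: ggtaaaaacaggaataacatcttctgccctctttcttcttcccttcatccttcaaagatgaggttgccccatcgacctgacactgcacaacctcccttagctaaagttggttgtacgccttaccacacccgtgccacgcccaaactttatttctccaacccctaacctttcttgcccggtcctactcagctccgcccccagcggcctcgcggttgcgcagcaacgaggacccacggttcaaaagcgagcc
Taf4 held CCAAT 2 times, beginning 222 bases before the start on the minus strand and 191 bases before it on the plus strand, and Brdt held it 1 time, 61 bases before the start used and within the gene span. The windows of Taf7l, Gtf2a1l, Tbp, Tbpl1 and Gtf2a1 held none. Of 32851 such windows in RefSeq, 33.8% held CCAAT on either strand. CACGTG stood 78 bases before the start used for Brdt, at the outer end of the span, 49 bases before that of Taf7l and 13 bases before 1 of the 2 starts of Gtf2a1, against 6.02% of all windows. GGGCGG, the GC-box letters, was found 6 times in Taf4, with 2 of the 6 overlapping each other, 2 times in Tbpl1 and 1 time each in Tbp and Gtf2a1l, against 32.7% of windows with at least 1. TATAAA, the TATA-box letters, was found only in the window of Taf7l, 1 time on each strand at 150 and 148 bases before the start and overlapping, against 12.4% of windows. TGACGTCA was found in none of the members' windows, against 1.55%. The motifs were chosen with these sequences in view, and a match is a run of letters, not a bound site.

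Among the TBP pair, both genes had their highest germ cell RNA in pachytene or diplotene spermatocytes. Tbp, which recognises the TATA box, was at 0.537 UMIs per 10000 in undiff. SpG, 0.655 in diff. SpG, 0.528 in pL, 0.60 in eL/L/Z, 0.734 in L/Z/eP, 1.21 in mP/lP, 1.22 in D, 0.751 in RS and 0.744 in ES. Tbpl1, a TBP-like factor that is required for spermatid development, was at 0.987, 1.24, 1.28, 1.09, 1.46, 2.28, 1.82, 1.13 and 1.15 in the same order. Both were thus highest around mP/lP and D, and lower again in spermatids. In Sertoli cells Tbp was at 0.270 and Tbpl1 at 0.802, beside 0.268 for Brdt. In RefSeq (GRCm38.p6) Tbp spans chr17:15499888-15517427 and Tbpl1 chr10:22703877-22732666. The log2 ratio of Tbpl1 to Tbp RNA moved by 0.60 over the 9 germ cell populations, from 0.53 in RS to 1.13 in pL, the narrowest span of the 4 pairs.

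The TAF4 pair had its highest RNA before and at meiotic entry. Taf4, a scaffold subunit of TFIID, was at 0.435 in undiff. SpG, 0.715 in diff. SpG, 0.851 in pL, 0.484 in eL/L/Z, 0.351 in L/Z/eP, 0.320 in mP/lP, 0.237 in D, 0.126 in RS and 0.125 in ES. Taf4b, a paralog needed to maintain the germ line, was at 1.04, 1.34, 1.64, 1.51, 1.09, 0.376, 0.647, 0.728 and 0.397. Taf4 was lower at each population after pL, while Taf4b had a low in mP/lP and higher values on both sides of it. Their log2 ratio was 1.40 in L/Z/eP, 0.18 in mP/lP, 1.15 in D and 1.87 in RS, the last resting on 0.126 UMIs per 10000 of Taf4. Taf4 spans chr2:179912146-179976646 and Taf4b chr18:14783201-14960424.

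The TAF7 pair ran in the same way. Taf7, a TFIID subunit that binds TAF1, was at 1.27 in undiff. SpG, 0.929 in diff. SpG, 1.01 in pL, 0.637 in eL/L/Z, 0.443 in L/Z/eP, 0.422 in mP/lP, 0.366 in D, 0.296 in RS and 0.388 in ES. Taf7l, its X-linked testis paralog, was at 2.52, 2.79, 3.05, 2.67, 1.46, 0.451, 0.932, 0.794 and 0.375. Among the germ cell populations of control libraries, the log2 ratio of Taf7l to Taf7 was highest in eL/L/Z, at 1.91. It was 0.08 in mP/lP and −0.04 in ES, and 1.96 in SpG from the library labelled Nfya-CKO. Taf7l was at 0.587 in Sertoli cells and 0.542 in other somatic cells. Taf7l spans chrX:134460116-134476505. Taf7, at chr18:37640491-37644204, lies inside 3 longer gene models of the protocadherin cluster, and since the strand used for counting is not stated in the sources used here, its values are uncertain in that respect. The same holds for Brdt, which overlaps the long noncoding RNA Gm17202 over 16443 bases, and for Taf4b, which overlaps 4930543D07Rik over 5273 bases.

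**Figure D1:**
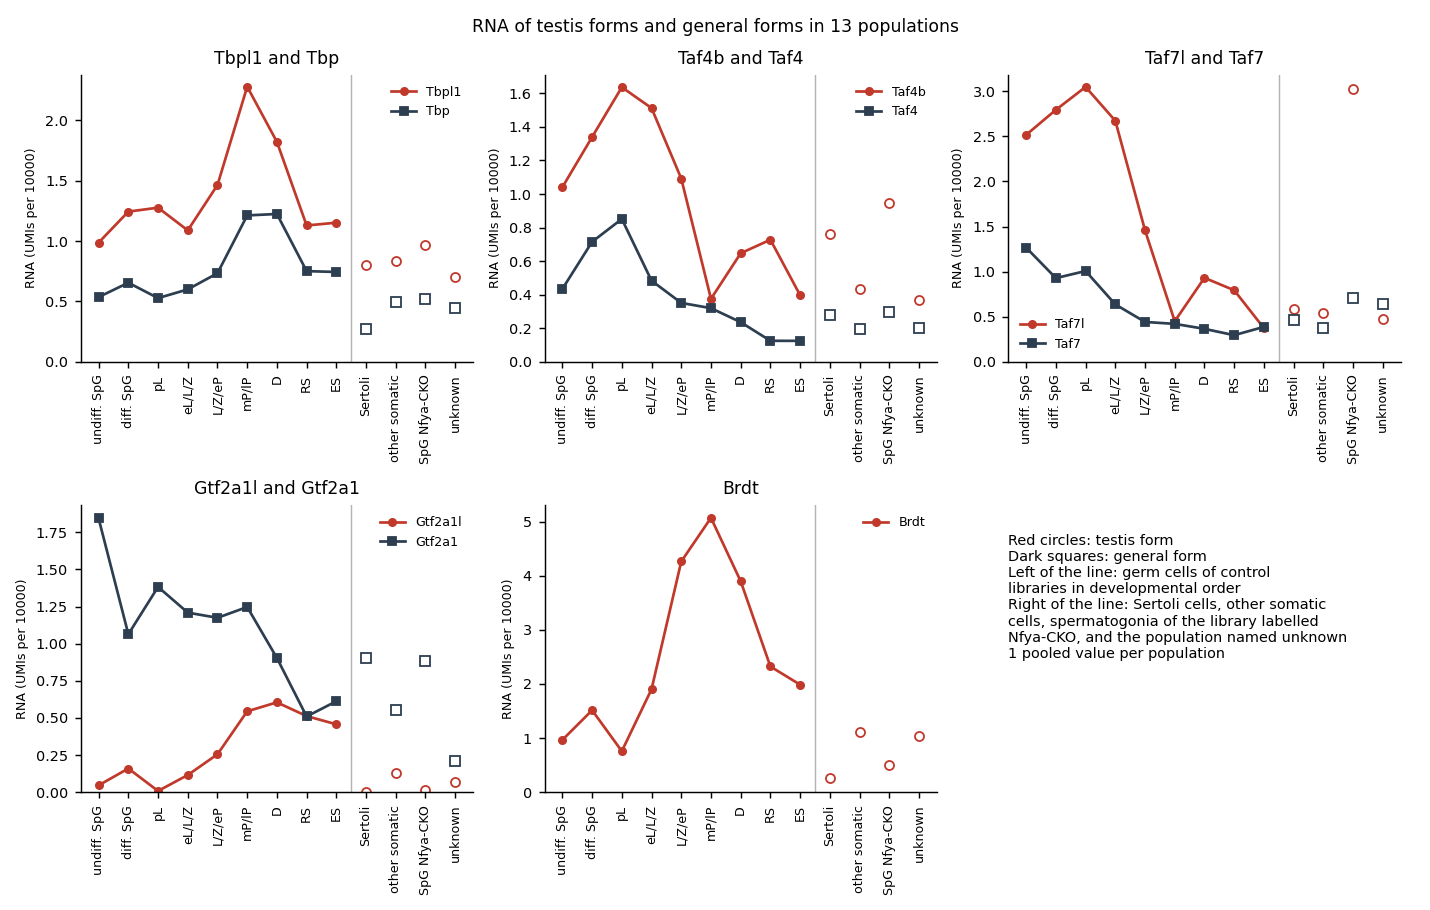
RNA of each testis form (red circles) and, in the 4 pairs, its general form (dark squares), in UMIs per 10000, over 13 populations, with germ cells of control libraries left of the line in developmental order and 1 pooled value per population. Brdt is at 1.90 in eL/L/Z and 4.26 in L/Z/eP, Gtf2a1l climbs from 0.008 in pL to 0.605 in D, and Taf4b and Taf7l share a low in mP/lP (0.376 and 0.451).

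The TFIIA pair, Gtf2a1 at chr12:91555262-91590487 and Gtf2a1l at chr17:88665493-88715157, differed in course, Gtf2a1 being highest in undiff. SpG and Gtf2a1l in D. Gtf2a1, the precursor of the large TFIIA subunits, was at 1.84 in undiff. SpG, 1.06 in diff. SpG, 1.38 in pL, 1.21 in eL/L/Z, 1.17 in L/Z/eP, 1.25 in mP/lP, 0.904 in D, 0.510 in RS and 0.613 in ES. Gtf2a1l, its testis paralog (also called ALF), was at 0.046, 0.160, 0.008, 0.116, 0.256, 0.545, 0.605, 0.513 and 0.457. The lowest values of Gtf2a1l were 0.004 in Sertoli cells, 0.008 in pL and 0.014 in SpG from the library labelled Nfya-CKO. These 3 values correspond to about 18.9, 13.5 and 13.9 UMIs in all, so that ratios against them are imprecise. The value of Gtf2a1l in diff. SpG stood above both neighbours, and the summed level of 5 spermatid markers (Acrv1, Tnp1, Tnp2, Prm1 and Prm2) did too, with 0.668 UMIs per 10000 in undiff. SpG, 11.1 in diff. SpG and 0.024 in pL, where Prm2 was at 0. The part of these RNAs in the value of Gtf2a1l was not tested.

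Brdt, at chr5:107331116-107387061, had its highest RNA in mP/lP. It was at 0.967 in undiff. SpG, 1.52 in diff. SpG, 0.759 in pL, 1.90 in eL/L/Z, 4.26 in L/Z/eP, 5.07 in mP/lP, 3.90 in D, 2.32 in RS and 1.99 in ES. Brdt was lowest in Sertoli cells (0.268), and in diff. SpG it again stood above both neighbours beside the spermatid markers.

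Whether UMI counts of 2 genes need a correction for length was not tested. With a length, the order of the 2 forms changed in some populations of every pair. The mean length of RNA behind a UMI in nuclei is not known, so ratios were also computed per kb of the longest curated RefSeq transcript and per kb of gene span, the latter chosen after the data were seen. Either moves the whole curve of a pair by a constant and leaves its shape. Tbpl1 was above Tbp in 9 of 9 without a length and in 6 of 9 by either length. Taf4b was above Taf4 in 9, 8 and 2 of 9 populations, Taf7l above Taf7 in 8, 9 and 0, and Gtf2a1l above Gtf2a1 in 1, 4 and 0, in each case without a length, per kb of transcript and per kb of gene span. Gtf2a1l was below Gtf2a1 on all 3 scales in the 5 populations from undiff. SpG to L/Z/eP. Taf4b was above Taf4 on all 3 in eL/L/Z, where the log2 ratio per kb of gene span was 0.0068, and in RS. Taf7l and Taf7 had the same order on all 3 scales in 0 of 9 populations.

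**Figure D2:**
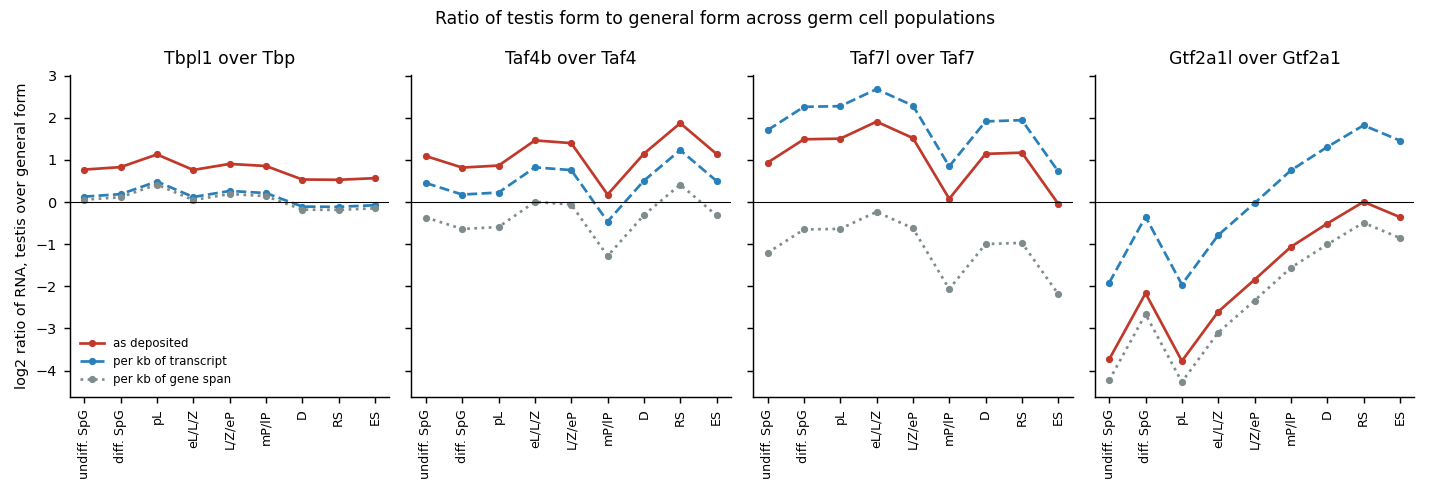
Log2 ratio of RNA (value + 0.1) of the testis form over the general form in the 9 germ cell populations of control libraries, as deposited (red), per kb of transcript (blue) and per kb of gene span (grey). Gtf2a1l over Gtf2a1 climbs from pL to RS, and Taf4b over Taf4 and Taf7l over Taf7 dip in mP/lP.

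Relative to undiff. SpG, mP/lP spermatocytes held more RNA of 4 members and less of 3. Those higher by at least 2-fold were Brdt (log2 ratio 2.28), Gtf2a1l (2.14), Tbpl1 (1.13) and Tbp (1.04), where 13.9% of all 15250 genes tested were higher. Those lower were Taf7l (−2.25), Taf7 (−1.39) and Taf4b (−1.26), where 20.8% of all genes were lower. Taf4 (−0.35) and Gtf2a1 (−0.53) stayed within 2-fold. Tbp and Tbpl1 lay just past the limit, and with a pseudocount of 0.5 in place of 0.1 only 1 member was higher and 1 lower. The change in the log2 ratio of testis to general form, mP/lP minus undiff. SpG, was 2.67 for Gtf2a1l (3.86 with a pseudocount of 0.01 and 1.36 with 0.5), 0.09 for Tbpl1, −0.86 for Taf7l and −0.91 for Taf4b.

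Of 33 other genes of the preinitiation complex and the BET family in the RNA matrix, 2 were higher by at least 2-fold in mP/lP and 5 lower, and their median log2 ratio was −0.25, against −0.14 over all genes. Taf9, a histone-fold TAF, went from 1.31 to 2.82 and Gtf2a2, the small TFIIA subunit, from 0.645 to 1.54. The 5 lower genes were Taf1, Taf9b, Taf8, Taf5l and Gtf2h3. Brd2 and Brd3, of the same family as Brdt, were at 4.86 and 3.49 in undiff. SpG and at 2.63 and 2.45 in mP/lP, which is within 2-fold. Tbpl2 and Taf7l2, also listed, were not in the RNA matrix.

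RS differed less from mP/lP. Gtf2a1 was lower by at least 2-fold (log2 ratio −1.14), as was Brdt (−1.09), where 9.36% of all genes were lower. No member was higher, where 17.6% of all genes were, the nearest being Taf4b (0.80) and Taf7l (0.70). The count depended on the pseudocount, since 0.01 gave 4 lower members, with 18.1% of all genes lower, and 0.5 gave 0, with 2.86%. Among the other 33 genes, Taf13 was higher (1.29 against 0.401), and Taf9, Gtf2h1, Gtf2h2, Gtf2h4 and Ccnh were lower. The last 4 belong to TFIIH, which opens the promoter and phosphorylates the polymerase, and all 10 measured TFIIH genes had a log2 ratio below 0, with a median of −0.93. So did 28 of the 33 other genes in all (median −0.55) and 7 of the 9 members (−0.62), where the median over all genes was −0.08, or −0.28 over genes with a mean of at least 0.2. ES against RS gave no member past 2-fold, where 10.1% of all genes were higher and 10% lower, and ES rest on 1195 cells in scRNA-seq and 124 cells with both assays.

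Sertoli cells held less RNA than undiff. SpG for 3 members, namely Taf7l (log2 ratio −1.93), Brdt (−1.54) and Taf7 (−1.27), where 16.9% of all genes were lower. No member was higher, where 10.1% of all genes were. All 9 members had a log2 ratio below 0, with a median of −0.78 against −0.29 over all genes, and of the 33 other genes 11 were lower and 0 higher. The Sertoli population was 99.9% juvenile. Its 5 Sertoli markers summed to 71.8 UMIs per 10000, but they summed to 105 in other somatic cells, where Clu alone was at 91.5.

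The low of Taf7l and Taf4b in mP/lP was followed against the chromosome on which each gene lies. Taf7l lies on the X and Taf4b on chromosome 18. Of eL/L/Z cells 42.6% and of mP/lP cells 70.7% came from 25 dpp, so stage and library cannot be told apart here either. Between eL/L/Z and mP/lP, Taf7l RNA went from 2.67 to 0.451 (log2 ratio −2.33), a ratio with 0.42% of all genes tested below it, and Taf4b from 1.51 to 0.376 (−1.76). Tbpl1 (1.0, only just past the limit), Brdt (1.37) and Gtf2a1l (1.58) were higher, where 10.3% of all genes were higher and 16.2% lower. Of 487 X-linked genes tested, 270 (55.4%) were lower by at least 2-fold, with a median log2 ratio of −1.08, against 2082 of 13593 autosomal genes (15.3%) with a median of −0.19. The 2 other X-linked genes among the TFIID subunits listed had the same low. Taf1, the largest TFIID subunit, went from 1.31 to 0.233 and Taf9b from 0.569 to 0.105. In D the values were 0.932 for Taf7l, 0.427 for Taf1, 0.184 for Taf9b and, on its autosome, 0.647 for Taf4b. In scATAC-seq between eL/L/Z and mP/lP, Gtf2a1l (1.31) and Tbpl1 (0.62) had more signal, where 15.2% of all genes did, and Taf4b less (−0.60), where 14% did. With mitochondrial genes kept in the total these ratios were 0.83, 0.17 and −1.04, and Gtf2a1 was then past the limit at −0.61, when 6.98% of all genes were higher and 36.5% lower and their median was −0.44. None of the members passed 2-fold in RNA between mP/lP and D, where 4.92% of all genes were higher and 0.184% lower, and none passed 1.5-fold in scATAC-seq, where 5.76% were higher and 0.807% lower. The median log2 ratio in that step was 0.39 over X-linked and 0.07 over autosomal genes.

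**Figure D3:**
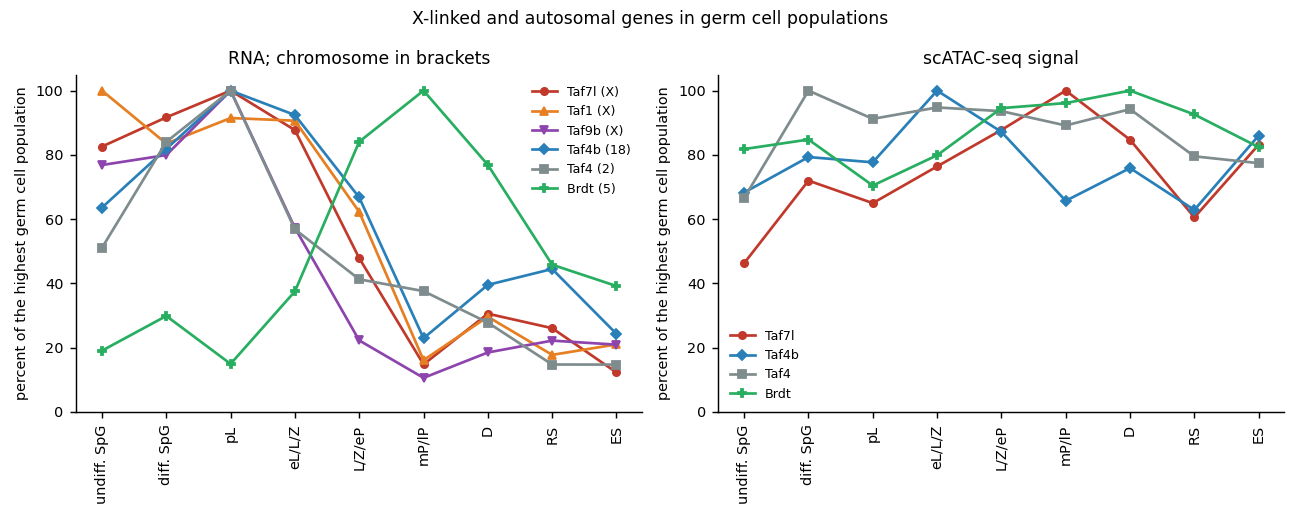
RNA (left) and scATAC-seq signal (right) in the 9 germ cell populations as percent of the gene's highest germ cell population, with the chromosome in brackets. RNA of Taf7l, Taf1, Taf9b and of autosomal Taf4b is lowest or near its lowest in mP/lP, where the scATAC-seq signal of Taf7l is at its highest on the nuclear scale (102.5 per 1000000), a rank that is lost with mitochondrial genes kept in the total.

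Which region stands for a gene in the scATAC-seq matrix is unknown here. The paper defines promoter accessibility by mean normalized coverage around the transcription start site. Whether the matrix follows that definition is not stated in the sources used here. In addition, 13 mitochondrial genes took 31.2 to 64.5% of the signal of a population. Values were therefore scaled to 1000000 over the nuclear genes of each population. Taf7l signal was 47.4 in undiff. SpG, 73.8 in diff. SpG, 66.6 in pL, 78.3 in eL/L/Z, 89.9 in L/Z/eP, 102.5 in mP/lP, 86.8 in D, 62.1 in RS and 85.2 in ES, against 18.4 in Sertoli cells. On this scale the population with the highest Taf7l signal was thus one in which its RNA was lower than at any earlier stage. The rank rests on the scale, since the log2 ratio of Taf7l signal in mP/lP over eL/L/Z was 0.38 here and −0.07 with mitochondrial genes kept in the total. Gtf2a1l signal was lowest in pL among germ cells (9.8) and highest in RS (37.5), with 22.5 in undiff. SpG and 6.4 in Sertoli cells. Brdt signal kept between 55.3 in pL and 78.4 in D over the germ cells, a range larger than that of 9.48% of all genes, and was 16.1 in Sertoli cells. RNA of Brdt over the same germ cells had a range larger than that of 83.0% of all genes.

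Tbpl1 signal was 67.8 in pL and 124.8 in mP/lP, and Taf4b signal 66.0 in RS and 105.0 in eL/L/Z. Among the general forms, and over the germ cell populations of control libraries only, Tbp ranged from 67.0 in ES to 103.3 in D and Taf4 from 77.4 in undiff. SpG to 116.2 in diff. SpG. Over the same populations Taf7 ranged from 37.3 in L/Z/eP to 56.6 in RS, and Gtf2a1 from 79.9 in undiff. SpG to 183.7 in ES. Over 12 populations, all but the one called unknown, Pearson's r between RNA and scATAC-seq signal was 0.78 for Gtf2a1l, 0.70 for Brdt, 0.65 for Tbpl1 and between −0.39 and 0.34 for the other 6 members. These coefficients are descriptions, since the populations share libraries and differ in depth.

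**Figure D4:**
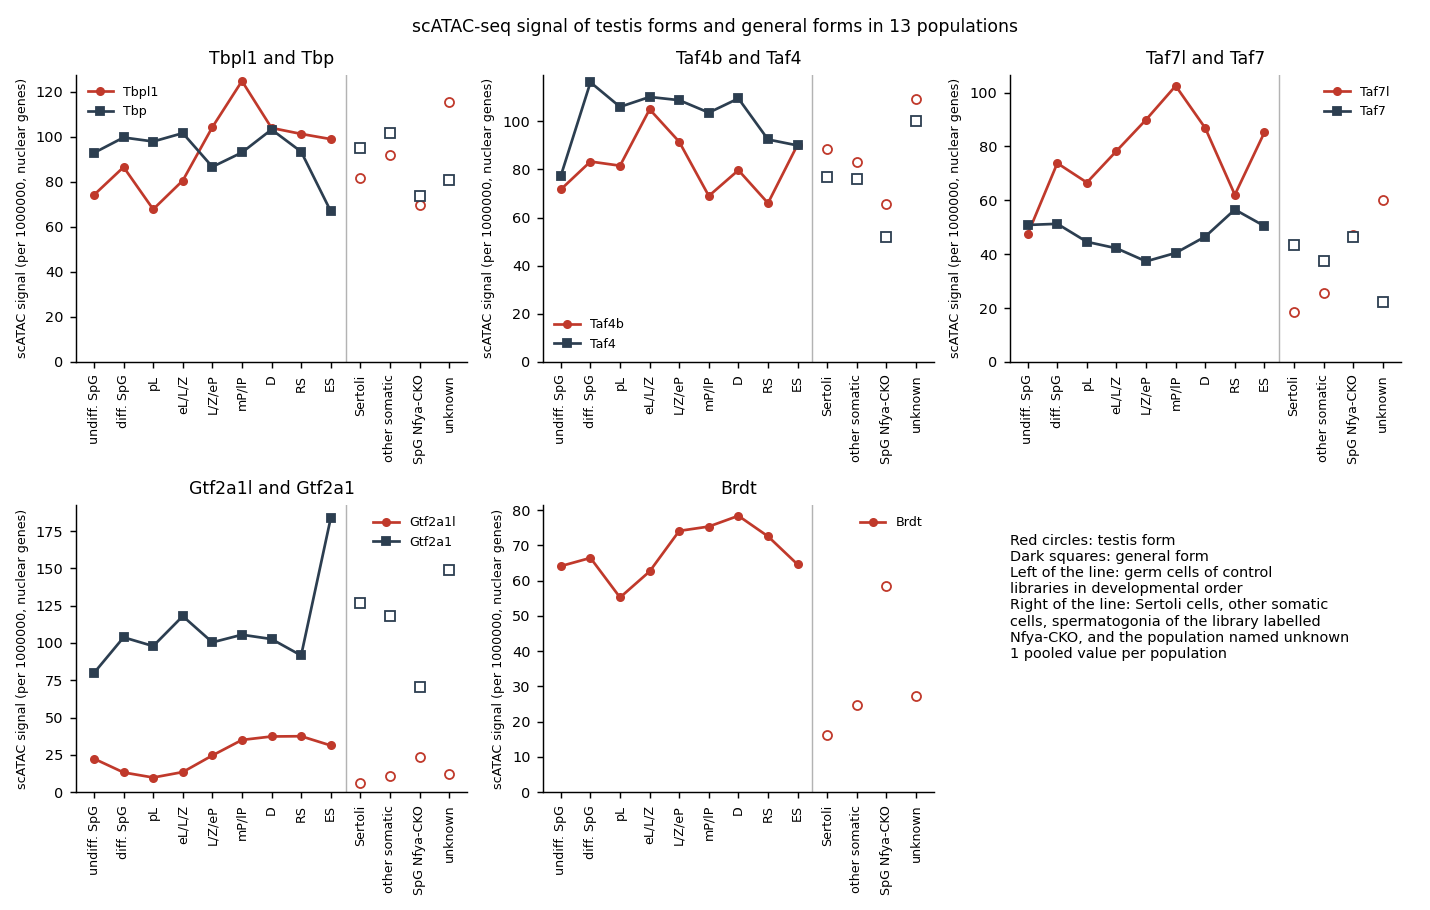
scATAC-seq signal of each testis form (red circles) and in the 4 pairs its general form (dark squares) over 13 populations, per 1000000 over nuclear genes, with 1 pooled value per population. Brdt signal is between 55.3 and 78.4 in germ cells and 16.1 in Sertoli cells, and Gtf2a1 stands out in ES, which rests on 124 cells with both assays.

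By the limit of 1.5-fold, Taf7l (log2 ratio 1.09), Tbpl1 (0.74) and Gtf2a1l (0.62) had more signal in mP/lP than in undiff. SpG, where 15.7% of 21945 genes were higher and 28.1% lower. No member was lower. This rests on the scale. With mitochondrial genes kept in the total, which moves the median of all genes in this comparison from −0.01 to −0.55, the 3 log2 ratios were 0.51, 0.16 and 0.05, no member was higher and 2 were lower, and 5.12% of all genes were higher and 47.9% lower. RS had less Taf7l signal than mP/lP (−0.71), where 2.88% of all genes were lower and 14.1% higher, and that ratio was −0.13 with mitochondrial genes kept, when 0.159% of all genes were lower and 49.8% higher. ES had more Gtf2a1 signal than RS (1.0), where 14.6% of all genes were higher and 25.4% lower. Sertoli cells had less signal than undiff. SpG at Brdt (−1.93), Gtf2a1l (−1.66) and Taf7l (−1.32), where 27.6% of all genes were lower, and more at Gtf2a1 (0.66), where 10.4% were higher. The 3 lower values kept their side with mitochondrial genes in the total, at −2.13, −1.79 and −1.54, while Gtf2a1 was then at 0.39.

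Whether these genes differed with the Nfya-CKO label was asked by setting the SpG from the library labelled Nfya-CKO against undiff. SpG, of whose 1292 cells 1 came from that library. No member was past 2-fold in RNA, where 4.09% of all genes were higher and 3.08% lower. The count depended on the pseudocount, since 0.01 gave 2 lower members, with larger shares of all genes both higher and lower. With the pseudocount of 0.1, Gtf2a1 came nearest, with 0.881 against 1.84 UMIs per 10000 (log2 ratio −0.99), followed by Brdt with 0.498 against 0.967 (−0.83) and Taf7 with 0.706 against 1.27 (−0.76). Taf4 was at 0.298 against 0.435 (−0.43). Tbp, Tbpl1 and Taf4b lay between −0.12 and −0.02, and Taf7l was at 3.03 against 2.52 (0.26). Of the 9 members 8 had a log2 ratio below 0, with a median of −0.36 against 0.01 over all genes, whereas the other 33 genes were 17 above and 16 below with a median of 0.00036. Among those 33, Gtf2h3, a TFIIH subunit, was lower by at least 2-fold, at 0.307 against 0.738.

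This comparison sets 1 adult library against spermatogonia that were 92.0% juvenile, so age, library and genotype cannot be told apart. The 2 populations also differed in RNA of other cells. The 5 Leydig cell markers listed (Cyp17a1, Cyp11a1, Hsd3b1, Star and Insl3) summed to 49.3 UMIs per 10000 in SpG from the library labelled Nfya-CKO and 0.208 in undiff. SpG, each of the 5 being higher, and the 5 Sertoli markers to 25.8 and 4.46, of which Clu made 22.8 and 2.50. Amh was at 0.012 and 0.043. Summed RNA of germ cells from pachytene on was lower, the 4 pachytene and diplotene markers summing to 0.529 against 1.048 and the 5 spermatid markers to 0.113 against 0.668. Ovol2, among the former, was slightly higher, at 0.223 against 0.202. The 4 early spermatocyte markers were split, although they summed to 2.07 against 1.71. Sycp3 (1.15 against 0.673) and Dmc1 (0.811 against 0.766) were higher. Meiob (0.054 against 0.154) and Prdm9 (0.051 against 0.122) were lower. For comparison, other somatic cells, mostly of the same library, where the Leydig markers summed to 218, held 0.554 of Gtf2a1, 1.12 of Brdt and 0.381 of Taf7. The part of such RNA in the differences was not tested.

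In scATAC-seq no member passed 1.5-fold against undiff. SpG, where 10.5% of all genes were higher and 3.50% lower. Taf4 came nearest, at 51.7 against 77.4 (log2 ratio −0.57), followed by Tbp at 73.7 against 92.9 (−0.33). Brdt was at 58.5 against 64.1 (−0.13) and Gtf2a1l at 23.5 against 22.5 (0.06). With mitochondrial genes in the total, Taf4 was past the limit at −0.70, when 5.85% of all genes were higher and 6.36% lower, and with the median ratio set to 1 it was at −0.60. Of the 9 members 8 had a log2 ratio below 0 (median −0.13), and so did all 33 other genes (median −0.18), with Taf1 (−0.69) and Brd3 (−0.61) past the limit. Over all genes the median was 0.03, but the ratio went with the level of the signal. Among 5366 genes with a mean signal of 60 to 130 per 1000000, 80.8% had a log2 ratio below 0 with a median of −0.18, against 57.6% of 3536 genes with a mean of 40 to 60, 30.1% of 4695 with 20 to 40 and 24.6% of 7777 with 5 to 20. The mean signal of the 9 members ran from 21.4 to 111, with a median of 83.4. The part of the signal level in the lower values was not tested.

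The choice of control changed which members were past a limit. Against diff. SpG, RNA of Brdt (log2 ratio −1.43), Gtf2a1l (−1.19) and Taf4 (−1.04) was lower in SpG from the library labelled Nfya-CKO, where 6.86% of all genes were higher and 10.5% lower. The spermatid markers summed to 11.1 in diff. SpG and 0.113 in the library labelled Nfya-CKO, and 448 of the 783 diff. SpG cells from Cre/+ shared a barcode with that library. Against pL, a comparison added after the data were seen, Taf4 alone was lower (−1.26), where 9.05% of all genes were higher and 4.73% lower. The pL cells were 99.7% juvenile, so age, library and genotype cannot be told apart there either. In scATAC-seq, Taf4 was lower against diff. SpG (51.7 against 116.2, −1.15), as was Taf7l (−0.63), and Gtf2a1l was higher (0.78), where 31.8% of all genes were higher and 16.0% lower. Against pL, Taf4 was at −1.02 and Gtf2a1l at 1.17, where 28.5% of all genes were higher and 10.8% lower. With mitochondrial genes in the total, Tbp, Taf4, Taf4b, Taf7l and Gtf2a1 were lower past the limit against both, at −0.69, −1.41, −0.60, −0.89 and −0.81 against diff. SpG and −0.75, −1.35, −0.65, −0.82 and −0.81 against pL, while Gtf2a1l was at 0.51 and 0.81. On that scale 28.3% and 28.1% of all genes were lower and 22.8% and 16.7% higher, and the median of all genes was −0.15 and −0.22. RNA of Taf4 was at 0.298 against 0.435, 0.715 and 0.851. All 3 ratios share the 1 value of the library labelled Nfya-CKO. They are therefore not separate measurements of it.

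**Figure D5:**
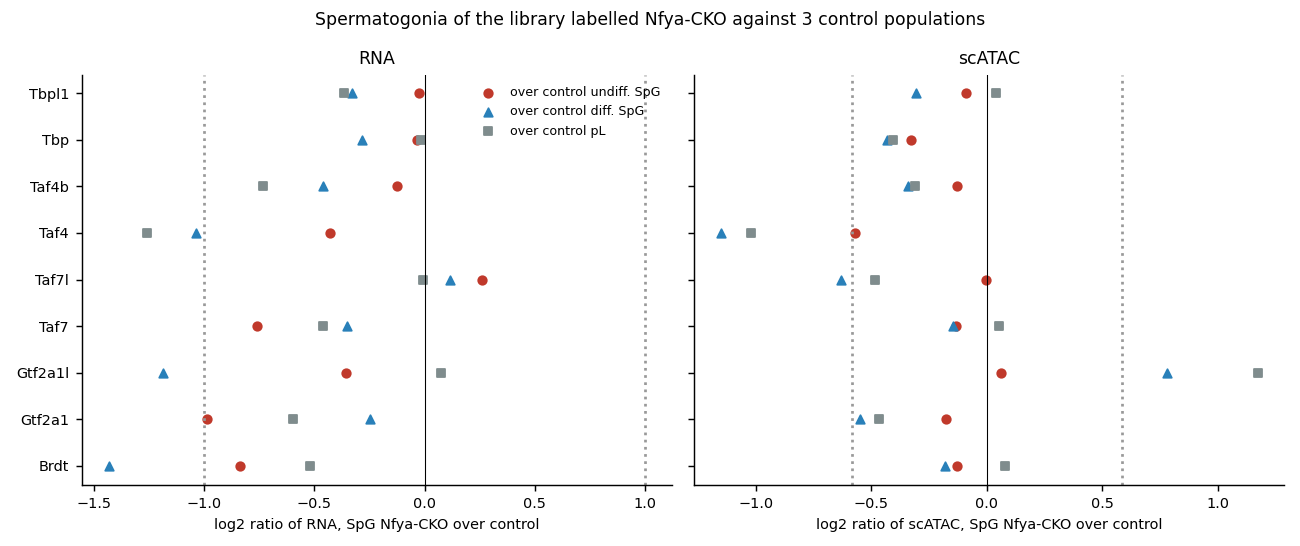
Log2 ratio of RNA (left) and scATAC-seq signal (right) in SpG from the library labelled Nfya-CKO over undiff. SpG (circles), diff. SpG (triangles) and pL (squares) of the other libraries, with dotted lines at 2-fold and 1.5-fold. Taf4 has the lowest scATAC-seq ratio of the 9 against each control (−0.57, −1.15 and −1.02), and no circle passes a dotted line.

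Among the members themselves, Pearson's r of RNA over the 12 populations was from 0.67 (Tbpl1 and Gtf2a1l) to 0.91 (Tbp and Brdt) for the 6 pairs among Brdt, Tbp, Tbpl1 and Gtf2a1l. It was from 0.56 (Taf4b and Gtf2a1) to 0.91 (Taf4b and Taf7l) for the 10 pairs among Taf4, Taf4b, Taf7, Taf7l and Gtf2a1, and at most 0.27 (Tbpl1 and Gtf2a1) between these groups, which were formed from the same values. Gtf2a1l and Taf7 had the most opposed pattern, at −0.68. Genes among the 3 most like each testis form in RNA, of 10267 genes whose mean reached 0.2, were 0610030E20Rik (r = 0.96), Fam118a (0.96) and Gmcl1 (0.94) for Tbpl1, Dek (0.98) and Yme1l1 (0.97) for Taf4b, Gm4779, Scml2 and Rnf157 (all 0.98) for Taf7l, Cage1 and Iqcd (both 0.99) for Gtf2a1l, and Stk33, Pcbp3 and Efcab5 (all 0.99) for Brdt. Gm4779 and Scml2 lie on the X. By Spearman's rho over the 9 germ cell populations, 0 of the 3 nearest genes were the same for Tbpl1, Taf7l, Gtf2a1l and Brdt and 1 for Taf4b. The measure and the set of populations were changed together there.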

How the data were processed

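Nuclei of 5 scRNA-seq and 5 scATAC-seq libraries were read. The authors aligned scRNA-seq reads to mm10 with STAR 2.7.10b, collapsed UMIs and filtered and named cells with Seurat 5.2.1, and processed scATAC-seq with BWA 0.7.12 and ArchR 1.0.3, removing doublets with DoubletFinder (scRNA-seq) and ArchR (scATAC-seq) (versions from the submitters' processing notes). The authors deposited 1 matrix per assay with 1 value per gene and population on a natural log scale. The values were found to be the natural log of 1 plus a mean whose total is 10000 per population, and low RNA values are not whole counts, so no count model was used. The deposited cell tables hold the count of UMIs or fragments per cell, not normalized, with library and population, and 23 further columns of them were not used.

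RNA values were converted to a mean of UMIs per 10000. scATAC-seq values were scaled to 1000000 over nuclear genes, because mitochondrial genes took unequal shares of the total between populations. Ratios used a pseudocount of 0.1 (RNA) or 1 (scATAC-seq). Calls were made at 2-fold among genes with a mean over populations of at least 0.05 (RNA), or at 1.5-fold among nuclear genes with a mean of at least 5 (scATAC-seq). Each population is 1 pooled value, so no p-value or replicate error was computed and precision could not be measured. The 9 members, the gene lists and the markers were chosen with earlier results of these data known. Genes named beyond the members were the listed genes past the fold, Brd2 and Brd3, and the 3 genes most similar to each testis form by Pearson's r. Nfya was named as the targeted gene, although RNA over the whole gene cannot check the label when only some exons are deleted. 13 alternatives were planned and 2 added after the data were seen, and the barcode overlap and the split by signal level were also examined then. Fold calls and similarity ranks were tested on simulated data. Python 3.11.15, numpy 2.4.6, pandas 2.3.3 and matplotlib 3.10.9 were used. Promoter windows and gene spans are those of RefSeq (GRCm38.p6), and windows of 7 of the 9 members were read. Member windows on chromosome 18, where Taf4b and Taf7 lie, were left out. The bulk assays were not used here, and some genes are not reported here.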

Additional observations from a re-analysis of the deposited data

How the results depend on the processing

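No paired analysis was possible because each condition is 1 library and the matrices hold 1 pooled value per population. No log2 ratio of a member past its fold changed sign under the other pseudocounts, filters and scales run within a comparison. With another control one did, RNA of Gtf2a1l in SpG from the library labelled Nfya-CKO being at −1.19 against diff. SpG, −0.36 against undiff. SpG and 0.07 against pL. Counts of members past 2-fold in RNA moved with the pseudocount. With 0.5, mP/lP against undiff. SpG gave 1 higher and 1 lower member (4 and 3 as reported). With the same setting RS against mP/lP gave 0 lower (2), with 2.86% of all genes lower, and Sertoli cells against undiff. SpG 1 lower (3), with 3.93%. With 0.01, RS against mP/lP gave 4 lower (18.1% of all genes lower), ES against RS 1 lower (0 as reported, 14.5% of all genes), Sertoli cells 5 lower (34.5%), and SpG from the library labelled Nfya-CKO against undiff. SpG 2 lower (0). With the pseudocount of 0.1, that last comparison gave 3 lower against diff. SpG and 1 lower against pL. The share of all genes past 2-fold moved likewise, for example in mP/lP against undiff. SpG from 13.9% higher and 20.8% lower to 6.66% and 7.20% with 0.5, and to 7.63% and 11.6% with no filter on low values. In the Nfya-CKO comparison, 4.09% and 3.08% became 10.2% and 9.60% with 0.01. The change in the log2 ratio of Gtf2a1l to Gtf2a1 from undiff. SpG to mP/lP, 2.67 as reported, was 3.86 with 0.01 and 1.36 with 0.5.

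In scATAC-seq, keeping mitochondrial genes in the total gave 0 higher and 2 lower members in mP/lP against undiff. SpG (3 and 0 as reported), 2 higher and 0 lower in RS against mP/lP (0 and 1), 0 higher in Sertoli cells (1) and 1 lower in the Nfya-CKO comparison (0), which also had 1 lower with the median ratio set to 1. On the nuclear scale, that comparison gave 1 higher and 2 lower against diff. SpG, and 1 higher and 1 lower against pL. By its construction, keeping mitochondrial genes in the total moves every gene of a population alike. Per kb of gene span, the testis form was above the general form in 2 germ cell populations for Taf4b (9 without a length), 0 for Taf7l (8) and 0 for Gtf2a1l (1), and per kb of transcript in 4 for Gtf2a1l.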
